A study of Mus musculus with 7 samples.

Results

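The cytosolic ribosome is built from RNA and a fixed set of ribosomal proteins, one copy of most of them in each particle. Large subunit proteins carry names in Rpl, small subunit proteins names in Rps, and the P proteins (Rplp) form the stalk that recruits translation factors. Their mRNAs typically begin with a cytosine and a run of pyrimidines at the 5′ end, called a TOP sequence, through which the mTOR pathway adjusts their translation. Some proteins also have paralogues with a restricted expression. The best known in this tissue is Rpl3l, which is expressed in skeletal muscle and heart, where it can take the place of Rpl3.

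The genes described here are those whose name on the array follows the pattern for these proteins (Rpl, Rps, Rplp or Rpsa, with number and letter). This pattern uses names only and no measured value. It took 82 of all genes on the array, 50 of the large subunit and stalk and 32 of the small subunit, measured by 185 of 39429 probes. A probe was kept if 3 or more of the 7 arrays had its signal well above background. This was the case for 180 of the 185 probes and for 81 of the 82 genes, and the gene left without a probe was Rpl10l. Every gene was represented by its brightest kept probe.

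Quadriceps RNA came from 4 WT and 3 AR113Q mice, 1 single-dye array each. All were C57BL/6 mice of 3 months (90 days in the design text, where the group is called AR113Q-NCD). AR113Q mice are knock-in mice that express a humanized androgen receptor with an expanded CAG tract, a model of spinobulbar muscular atrophy (SBMA), and they carry the expanded receptor in all tissues that express it, not in muscle alone. The labels call the controls WT, whereas the results text of the study describes a knock-in control line with a short tract. The labels do not say that the mice come from separate litters, so p-values measure the spread between these samples only.

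Per array, 47.6% to 55.8% of probes stood well above background, with 0 saturated spots. The arrays lay on 5 slides and were scanned on the same day, and the only slide with both genotypes held WT replicate 2 and AR113Q replicate 1. Markers of skeletal muscle fibers, the labelled tissue, were well above background on every array (10 of 10 genes). In bulk muscle, fewer cells of a type and less RNA per cell cannot be told apart. With 7 arrays the precision of each value is limited. Signals are given as log2 of the intensity after quantile normalization, and a change is the mean of AR113Q minus the mean of WT on that scale.

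Most ribosomal protein genes had a slightly higher signal in AR113Q than in WT muscle. The change was above 0 for 71 of 81 genes, with a median of 0.23 (17.2% more signal) and a middle range of 0.09 to 0.37. Over all 16577 genes tested the median was -0.01 and 49.4% were above 0. The change was smaller than 0.5 on the log2 scale in either direction for 86.4% of the ribosomal protein genes and for 46.9% of all genes. Large and small subunit genes had medians of 0.22 (49 genes) and 0.25 (32 genes).

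By limma with an adjusted p of at most 0.05, 9 of the 81 genes were higher in AR113Q and 1 was lower, so that 71 did not pass. In the same test 43.6% of all genes passed, 21.0% higher and 22.6% lower, and 12.3% of the ribosomal protein genes did. Not passing does not show that a gene was unchanged. None of them passed with a change of at least 1 on the log2 scale, which 24.3% of all genes did. Signals of the genotypes did not overlap for 27 of the 81 genes (33.3%), beside 49.3% of all genes. In 26 of the 27 AR113Q was higher, which is 32.1% of the ribosomal protein genes beside 24.2% of all genes.

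The size of the shift depended on the array and on the scaling. With arrays scaled to the 75th percentile in place of quantile normalization, 54 genes were above 0, the median was 0.11, and 2 genes were higher (Rpl3 and Rps9) and 2 lower (Rpl3l and Rpl39l). The other 7 of the 9 genes had changes of 0.05 (Rpl41) to 0.36 (Rps27) in that scaling and did not pass. In the log2 values that the authors deposited, 73 genes were above 0, the median was 0.23, and 24 were higher and 1 lower. Of all genes, 43.0% passed with 75th percentile scaling and 40.6% in the authors' values. The direction of the median was the same in every scaling and in every array left out.

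**Figure D1:**
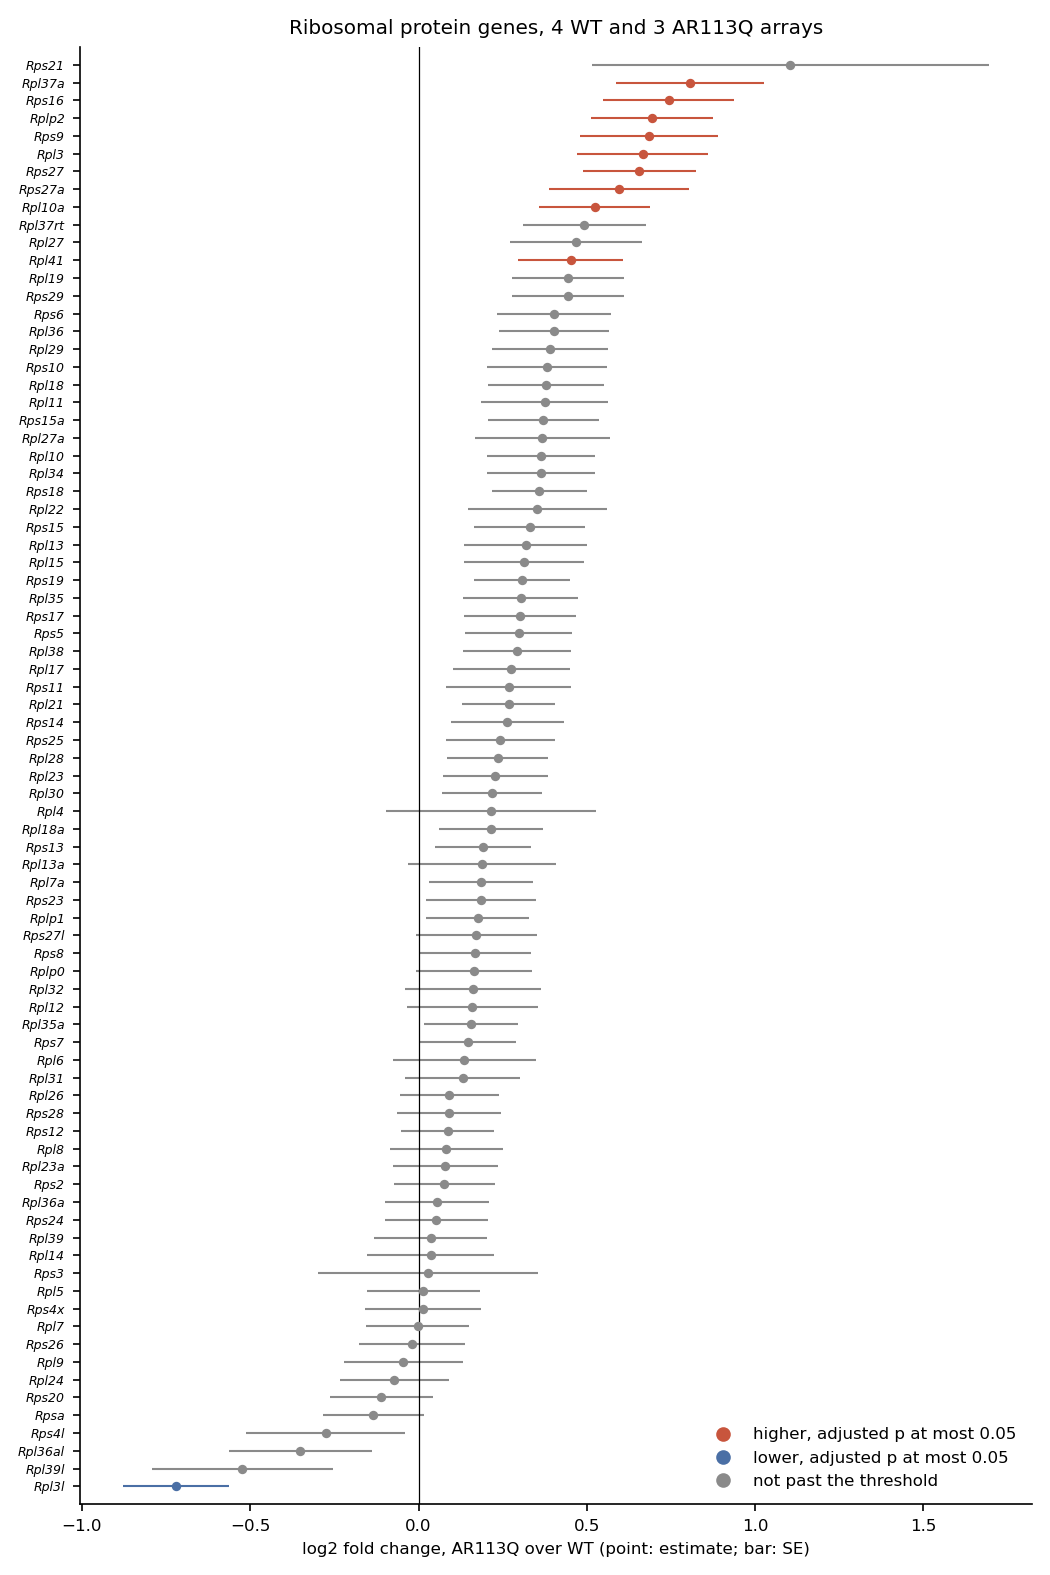
Log2 fold change (AR113Q over WT, horizontal axis) of the 81 ribosomal protein genes, ordered by size, with the standard error as a bar. The 9 genes in red were higher and Rpl3l in blue was lower at an adjusted p of at most 0.05 (limma); Rps21 at the top has a wide error and did not pass.

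The AR113Q arrays did not shift alike. Relative to the mean of the WT arrays, the median shift of the ribosomal protein genes was 0.36 in AR113Q replicate 1, 0.33 in replicate 2 and 0.07 in replicate 3. In the WT arrays it ran from -0.07 to 0.05. Each WT array is part of the mean it is set against, which narrows the WT range. AR113Q replicate 3 was therefore close to the WT arrays, and whether it lies beyond their range cannot be told. It was the lowest AR113Q array for 67 of 81 genes. Of the 81 genes, 60 exceeded all WT arrays in AR113Q replicate 1, 66 did so in replicate 2 and 27 in replicate 3. These are 74.1%, 81.5% and 33.3% of them, beside 38.4%, 36.3% and 37.0% of all genes. The median of all genes lay between -0.03 and 0.02 on the 7 arrays. Without AR113Q replicate 3, 22 ribosomal protein genes were higher and 1 lower, among them all 10 that passed with every array. Without any other single array 3 or 4 were higher. Of all genes, 44.9% passed without AR113Q replicate 3 and 34.4% to 37.6% without any other single array. On the slide with both genotypes, the AR113Q array exceeded the WT array by a median of 0.44, with 67 of 81 genes above 0, beside a median of -0.04 and 48.1% above 0 for all genes. These arrays were the AR113Q array with the highest median shift and the WT array with the lowest.

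**Figure D2:**
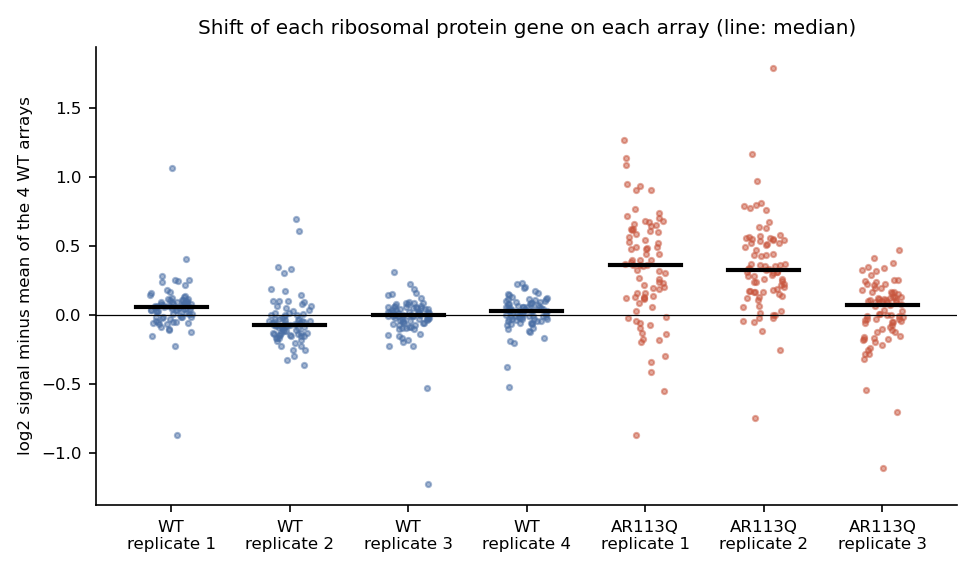
Log2 signal of each ribosomal protein gene on each array minus the mean of the 4 WT arrays (vertical axis), with 1 point per gene and a line at the median. The WT medians lie between -0.07 and 0.05, AR113Q replicates 1 and 2 at 0.36 and 0.33, and AR113Q replicate 3 at 0.07.

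Rpl3 and its muscle paralogue Rpl3l moved in opposite directions. They are separate genes for closely related proteins, either of which fills the same place in the large subunit, close to the peptidyl transferase center. The log2 signal of Rpl3l was 14.81, 14.63, 14.52 and 14.82 in the WT arrays and 13.83, 13.95 and 14.15 in the AR113Q arrays. Every AR113Q array was below every WT array. Rpl3l fell by 0.72 on the log2 scale (standard error 0.16, 1.65-fold lower, adjusted p = 0.00746 by limma), and no other ribosomal protein gene passed as lower.

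For Rpl3 the log2 signal was 13.38, 13.50, 13.26 and 13.13 in WT and 14.03, 14.29 and 13.63 in AR113Q. Here every AR113Q array was above every WT array. Rpl3 rose by 0.67 (standard error 0.19, 1.59-fold, adjusted p = 0.0246 by limma). The second probe of Rpl3 rose by 0.85 (standard error 0.17, adjusted p = 0.00439 when each probe was a feature), so both probes of the gene passed. The probes of Rpl3 are placed by the array annotation (mm9) on chromosome 5 from 10559558 to 10559617 and on chromosome 4 from 112627797 to 112627856. RefSeq places the gene itself on chromosome 15.

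The difference between Rpl3l and Rpl3 was also taken within each array. Its absolute value has no meaning between different probes, so it is given relative to its WT mean. It was 0.05, -0.24, -0.11 and 0.31 in the WT arrays and -1.58, -1.72 and -0.86 in the AR113Q arrays. The balance thus moved by -1.39 on the log2 scale toward Rpl3, a 2.62-fold change, with no overlap. A two-sided exact permutation test over the arrays gave p = 0.0571, the smallest value that 4 against 3 arrays allow, and p = 0.0762 after adjustment over the 4 paralogue pairs compared. Rpl3l passed the limma test in 18 of 20 alternative settings and Rpl3 in 13.

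**Figure D3:**
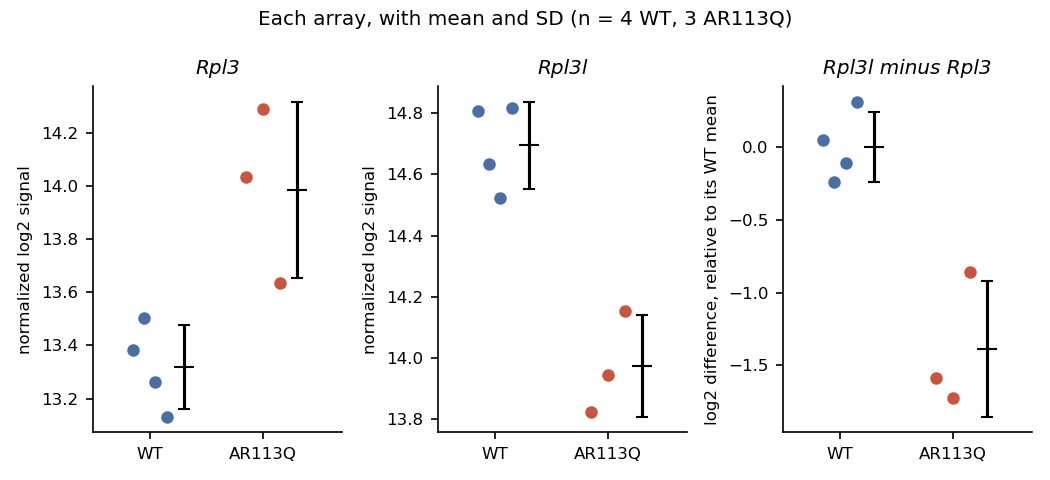
Normalized log2 signal of Rpl3 and Rpl3l on each array, and the difference Rpl3l minus Rpl3 relative to its WT mean, with the mean and SD beside the points (n = 4 WT and 3 AR113Q). Rpl3 is higher and Rpl3l lower in all 3 AR113Q arrays, and the difference is between -1.72 and -0.86 in AR113Q against -0.24 to 0.31 in WT.

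The other paralogues did not pass after quantile normalization. Rpl39l, best known from the testis, had a log2 signal of 5.53, 4.95, 5.47 and 5.31 in WT and of 4.90, 5.27 and 4.21 in AR113Q, near the lower end of the scale. Its log2 fold change was -0.52 (adjusted p = 0.150), beside 0.04 for its partner Rpl39 (adjusted p = 0.879). Rps27l and Rps27 gave 0.17 (adjusted p = 0.466) and 0.66, and Rpl36al and Rpl36a gave -0.35 (adjusted p = 0.215) and 0.05 (adjusted p = 0.795). With 1 AR113Q array left out in turn, Rps27l ran from 0.08 to 0.36 and Rpl36al from -0.50 to -0.17. Within the array, the balance of Rpl39l to Rpl39 moved by -0.56 and that of Rps27l to Rps27 by -0.48, both with no overlap and an exact p of 0.0571. The change of Rpl39l itself depended on the setting. It was -0.79 with 75th percentile scaling, where it passed (adjusted p = 0.0467 by limma), and -0.76 without AR113Q replicate 2, but -0.10 in the authors' values, -0.18 with normexp background correction, -0.05 with slide as a fixed term and -0.23 without AR113Q replicate 3. For Rpl36al to Rpl36a it moved by -0.41 with overlap (exact p = 0.114). In these 4 pairs the mean balance moved away from the paralogue, although none of them could reach 0.05 in the two-sided exact permutation test over 7 arrays. Rps27l itself had an estimate above 0, and its balance moved because Rps27 had the larger one. The pairs do not cover every paralogue. Rps4l, kept but not paired and outside the rule for named genes, had a log2 fold change of -0.28 (adjusted p = 0.373 by limma). Rpl37rt, a copy of Rpl37 outside these pairs and outside the rule for named genes, had a log2 fold change of 0.49 (adjusted p = 0.0591) with no overlap, and of 0.08 (adjusted p = 0.720) with 75th percentile scaling. Rpl10l, the partner of Rpl10 known from male germ cells, had neither of its probes well above background, whatever the array. Rpl10 itself had a log2 fold change of 0.36 (adjusted p = 0.0994). With each probe as a feature its other probes gave -0.23 and -0.08 without passing, and the mean over its probes was 0.02.

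Among the other large subunit genes, 3 were higher in AR113Q. Rpl37a, a zinc finger protein of the large subunit, had the largest increase of those that passed after quantile normalization, and 0.33 without passing after 75th percentile scaling. Its log2 signal was 16.15, 15.94, 16.29 and 16.05 in WT and 17.04, 17.27 and 16.43 in AR113Q. The change was 0.81 (standard error 0.22, 1.75-fold, adjusted p = 0.0191), and its other probe rose by 0.53 (adjusted p = 0.0457). Rpl10a, the protein of the mobile stalk next to the exit site of tRNA, measured 15.63, 15.67, 15.66 and 15.77 in WT and 16.36, 16.36 and 15.90 in AR113Q, an increase of 0.52 (standard error 0.16, adjusted p = 0.0334). Its other probe gave 0.42 and did not pass (adjusted p = 0.0520). The WT arrays were close together here, and the lowest AR113Q array was 0.13 above the highest of them. Rpl41, the smallest ribosomal protein, stood ninth among the increases that passed, 1 place beyond the rule for named genes, and rose by 0.45 (standard error 0.16, adjusted p = 0.0460).

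Among the stalk proteins only Rplp2 passed. Its log2 signal was 15.85, 15.61, 15.71 and 16.02 in WT and 16.70, 16.56 and 16.21 in AR113Q, an increase of 0.69 (standard error 0.18, 1.62-fold, adjusted p = 0.0158). Rplp1, with which it pairs on the stalk, had a log2 fold change of 0.18 (adjusted p = 0.384). Rplp0, which anchors the pair to the ribosome, had 0.16 (adjusted p = 0.464). With 75th percentile scaling both lay below 0 (-0.12 and -0.17), as did Rpl10 (-0.08) and Rpl11 (-0.01). For both stalk genes the arrays of the genotypes overlapped, and whether they differ from Rplp2 was not tested.

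In the small subunit 4 genes were higher. Rps16, whose tail touches the tRNA that holds the growing chain, measured 15.96, 15.85, 16.04 and 16.07 in WT and 17.06, 16.77 and 16.33 in AR113Q. The change was 0.74 (standard error 0.20, 1.67-fold, adjusted p = 0.0166). With each probe as a feature its other probes gave 0.34 (on chromosome 7 with the gene, adjusted p = 0.136) and 0.25 (adjusted p = 0.205), and the mean over its probes was 0.44. Rps9, one of the first proteins to join the subunit, measured 15.32, 15.16, 15.21 and 15.31 in WT and 16.39, 15.82 and 15.59 in AR113Q, an increase of 0.68 (standard error 0.20, adjusted p = 0.0273). Both genes had AR113Q replicate 1 highest and replicate 3 lowest. Rps27, a zinc finger protein, measured 15.79, 15.60, 15.62 and 15.61 in WT and 16.60, 16.20 and 16.13 in AR113Q, an increase of 0.66 (standard error 0.17, adjusted p = 0.0144). Of its other 3 probes 1 rose, by 0.56 (adjusted p = 0.0247), and the others gave 0.36 (adjusted p = 0.228) and 0.29 (adjusted p = 0.277). Rps27a is made as a fusion with ubiquitin. It measured 15.70, 15.73, 15.83 and 15.81 in WT and 16.67, 16.54 and 15.88 in AR113Q, an increase of 0.60 (standard error 0.21, adjusted p = 0.0480). Its other probe, on chromosome 11 with the gene, had a log2 fold change of -0.14 (adjusted p = 0.673 with each probe as a feature), and the mean of both was 0.23. Of the named genes it was the least stable call, and passed in 5 of 20 alternative settings.

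Several ribosomal proteins with roles of their own did not pass with every array included. Rps6, the phosphorylation target of the S6 kinases downstream of mTOR, had a log2 fold change of 0.40 (adjusted p = 0.0889) with no overlap. Rpl11 and Rpl5, which in free form bind the p53 regulator Mdm2, had 0.37 (adjusted p = 0.142) and 0.01 (adjusted p = 0.956). Without AR113Q replicate 3, Rps6 (0.54, adjusted p = 0.0277) and Rpl11 (0.58, adjusted p = 0.0142) passed by limma. Rpl5 did not (0.11, adjusted p = 0.645). Rpsa, also known as a laminin receptor, had -0.13 (adjusted p = 0.494), and all 4 of its probes were below 0. Rps21 had the largest estimate of all, 1.10, on a dim probe that was well above background on 3 of 4 WT arrays. It measured 6.32, 5.95, 4.03 and 4.73 in WT and 6.53, 7.05 and 5.51 in AR113Q, with a standard error of 0.59 (adjusted p = 0.164). It is named here because of that value and stands outside the rule for named genes.

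The probes show how far these values can be resolved. Ribosomal protein genes have many processed copies in the genome. For 124 of 177 kept probes with a known place, the array annotation (mm9) put the probe on another chromosome than RefSeq gives for the gene, and this held for 55 of the 79 probes that represent a gene and have a place. The median log2 fold change was 0.22 for these 124 probes and 0.05 for the 53 on the chromosome of the gene. Of the 13 probes that were higher with each probe as a feature, 9 belonged to the former and 4 to the latter, while over all probes 43.8% passed in either direction. Signals from copies in the genome cannot be told apart from those of the parent gene.

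Of 57 genes with several kept probes, 22 had probes on both sides of 0 and 6 had some probes that passed and some that did not. None had probes that passed in both directions. The median gap between the lowest and the highest probe was 0.28 on the log2 scale, larger than the median change of the genes. In 2 genes, Rpl3 and Rpl37a, all probes passed.

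Rpl15 had the widest gap. Its brighter probe measured 15.22, 15.27, 15.20 and 15.14 in WT and 15.89, 15.38 and 15.30 in AR113Q, a change of 0.31 that did not pass (adjusted p = 0.187). Its other probe lies on chromosome 14 from 19100588 to 19100647 (mm9), the chromosome of the gene. It measured 11.42, 11.08, 11.27 and 10.98 in WT and 9.79, 10.05 and 10.01 in AR113Q, and fell by 1.24 (standard error 0.17, adjusted p = 0.000922). These probes of the same gene thus moved apart without overlap. The array annotation assigns both to the same transcript, with a start position of 461 for the brighter probe and 1530 for the other.

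In the other 5 of the 6 genes with the widest gaps and probes on both sides of 0, no probe passed. The probes of Rps6 gave 0.40, 0.38 and -0.37, and those of Rps24 ran from -0.59 to 0.17. The probes of Rpl21 ran from -0.40 to 0.59 and those of Rps15a from -0.09 to 0.66. For Rpl36a, 1 probe gave -1.07 with a standard error of 0.86. It measured 7.57 in AR113Q replicate 1, as against 10.99 to 11.80 on the other arrays, so that estimate rests on 1 array.

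**Figure D4:**
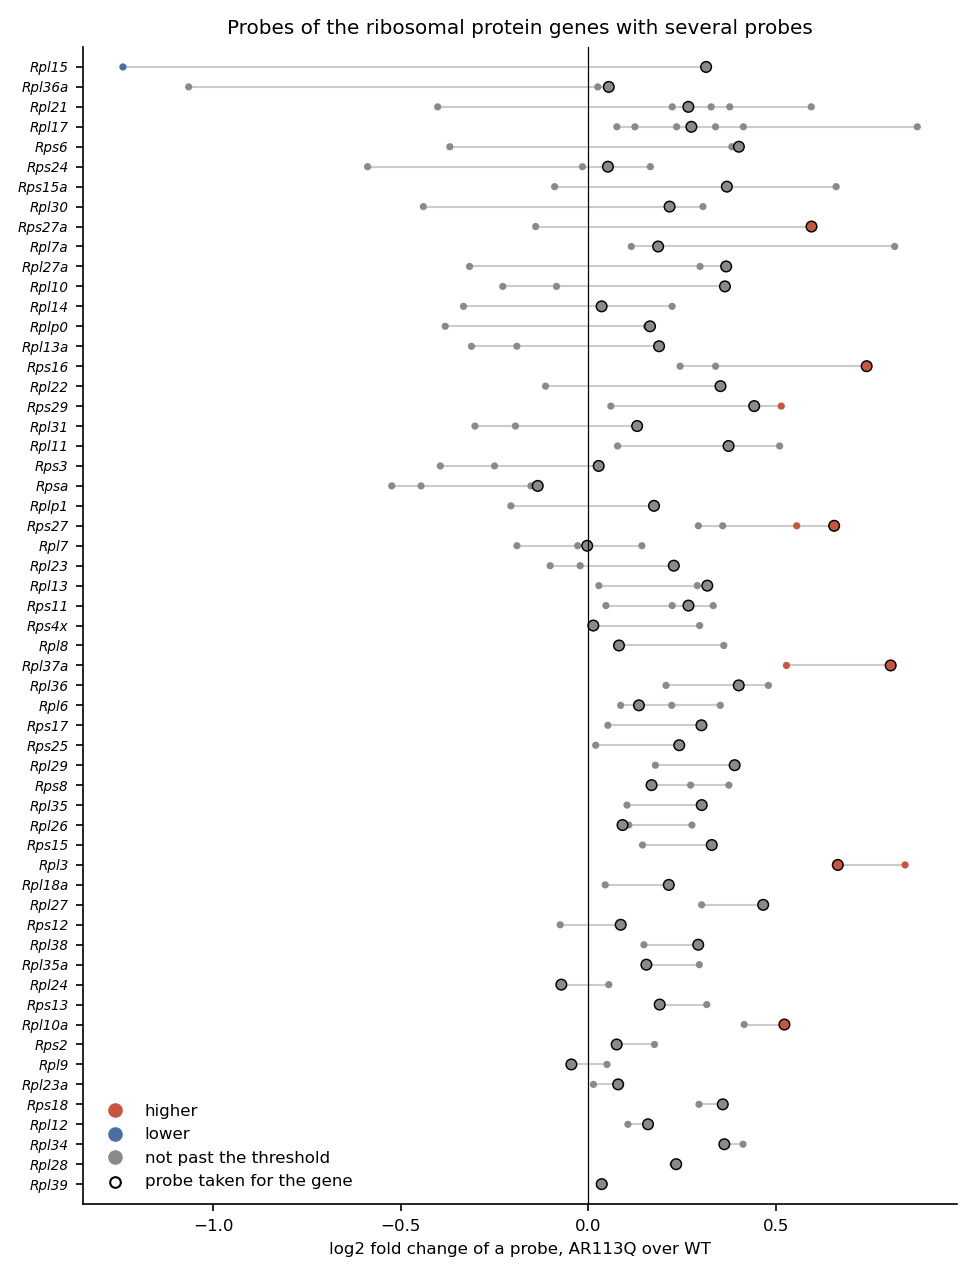
Log2 fold change (horizontal axis) of every kept probe of the 57 ribosomal protein genes with several probes, ordered by the gap between their probes, with the probe taken for the gene outlined. In 22 genes the probes lie on both sides of 0, and the lower probe of Rpl15 at -1.24 is the only one in this plot that passed as lower.

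Sequences around the annotated transcript starts of some named genes are shown because a TOP sequence lies at that start. They come from RefSeq (GRCm38.p6), which had an entry for 61 of the 82 genes, and each covers 40 bases before and 20 bases from the start. Too few genes had an entry (74.4%) to compare a share among ribosomal protein genes with that of all genes. Capitals mark the longest unbroken run of C and T.
Rplp2 (higher; chr7:141447611-141447670, plus strand): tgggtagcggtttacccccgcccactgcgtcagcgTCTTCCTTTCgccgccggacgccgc
Rps9 (higher; chr7:3704001-3704060, plus strand): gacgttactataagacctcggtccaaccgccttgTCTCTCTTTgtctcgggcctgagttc
Rps27 (higher; chr3:90213629-90213688, minus strand): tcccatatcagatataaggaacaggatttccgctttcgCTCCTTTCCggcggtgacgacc
Rpl37a (higher; chr1:72711220-72711279, plus strand): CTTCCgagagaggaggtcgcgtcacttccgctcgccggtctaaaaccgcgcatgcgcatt
Rps16 (higher; chr7:28350649-28350708, plus strand): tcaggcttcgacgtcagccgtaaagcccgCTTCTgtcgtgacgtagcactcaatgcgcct
Rps6 (not passed; chr4:86857348-86857407, minus strand): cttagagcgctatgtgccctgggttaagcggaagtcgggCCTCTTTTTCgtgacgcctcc
Rpl15 (1 probe lower; chr14:18270967-18271026, minus strand): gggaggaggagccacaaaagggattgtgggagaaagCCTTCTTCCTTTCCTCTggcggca
Rpl3l (lower; chr17:24727786-24727845, plus strand, 1 of 2 starts): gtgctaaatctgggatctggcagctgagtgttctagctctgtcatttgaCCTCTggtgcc

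In Rplp2, Rps9, Rps27, Rps6 and Rpl15 a run of 9 to 17 pyrimidines spanned the annotated start. The 8 genes shown were picked after their windows had been seen. Of all 21 named genes with an entry, 6 had a longest run that spanned a start, the other being Rps24 at 1 of its 2 starts, and in 15 it spanned none. Of all 32851 promoters, 24.2% had a run of at least 8 somewhere in this window, 11.7% one of at least 10, and 2.54% a longest run of at least 9 that spanned the start. In Rpl37a, Rps16 and Rpl3l the longest run was 5 and did not span the start, nor did the runs of 7 and 5 at the starts of Rpl10a, so the genes that were higher include both kinds. The letters CTTTCC, searched on the strand of the transcript only, stood in the windows of 3 of the 21 named genes (Rps27, Rpl15 and Rpl39l) and in 2.89% of all windows of that length. A match or its absence describes these letters only.

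Genes that work with the ribosomal proteins were counted from lists. Fau, whose product is a small subunit protein fused to a ubiquitin-like protein, rose by 0.80 (standard error 0.16, adjusted p = 0.0056), and was the only one that passed of 9 fusion, ribosome-bound and similar genes (median 0.26). That 1 is 11.1% of them, beside 43.6% of all genes, and 0 of the 9 passed with 75th percentile scaling. Of the 9 elongation factors 0 were higher and 2 lower (median -0.04), with the largest decrease in Eef1e1, a factor of the tRNA synthetase complex (-1.72). These 2 are 22.2% of them, beside 22.6% of all genes lower, and only 1 passed without AR113Q replicate 2. Initiation factors and poly(A)-binding protein had 13 higher and 1 lower of 30 (median 0.39). These are 43.3% higher and 3.33% lower, beside 21.0% and 22.6% of all genes, and 46.7% passed in either direction beside 43.6%. Without WT replicate 3 or without AR113Q replicate 1, 9 of them passed in place of 14. Eif4a1, the helicase of the cap-binding complex, rose by 1.47 (standard error 0.16, adjusted p = 0.000421), whereas the cap-binding protein Eif4e fell by 1.08 (standard error 0.18, adjusted p = 0.0026).

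In ribosome assembly and rRNA processing 31 of 64 genes were higher and 3 lower (median 0.47), so that 53.1% passed and 48.4% were higher, beside 43.6% and 21.0% of all genes. Sbds, which readies the large subunit for translation, rose by 1.94, and Pes1, a factor of large subunit assembly, fell by 2.52. RNA polymerase I and its factors had 3 higher and 2 lower of 15 measured genes (median 0.15), and 33.3% of them passed, below the 43.6% of all genes. Taf1d rose by 3.08 on a probe that was dim in WT, and Ubtf, which activates the rRNA genes, fell by 0.56.

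Among 27 regulators of ribosomal protein synthesis 18 were higher and 1 lower (median 0.75), which is 66.7% higher beside 21.0% of all genes. The 19 that passed became 11 without WT replicate 1, WT replicate 3 or AR113Q replicate 1, and also 11 with no filter on dim probes. They include mTOR itself (Mtor, 1.07) and Myc (1.07), and also genes known to restrain the pathway, such as Eif4ebp1 (1.98), Ddit4 (1.60) and Sesn1. Of these only Sesn1 comes from the rule for named genes, and the others were picked for their roles after their values had been seen. Sesn1 had the largest estimate (4.66, adjusted p = 0.0198). It rests in part on WT replicate 1, at 4.75 beside 10.06 to 10.56 in the other WT arrays, and the AR113Q arrays measured 13.39 to 13.61. Deptor, an inhibitor of mTOR, was the only one that passed as lower (-0.50). Mitochondrial ribosomal proteins, which form the separate ribosome of mitochondria, had 3 higher and 13 lower of 77 (median -0.20), and 20.8% passed, below the 43.6% of all genes. Their median shift was -0.30 and -0.26 in AR113Q replicates 1 and 2 and 0.00 in replicate 3. The 16 that passed became 28 without AR113Q replicate 3 and 7 to 10 without any other single array. The largest changes were those of Mrpl41 (1.65) and Mrpl35 (-1.16). The differences between these lists and the ribosomal protein genes were not tested.

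**Figure D5:**
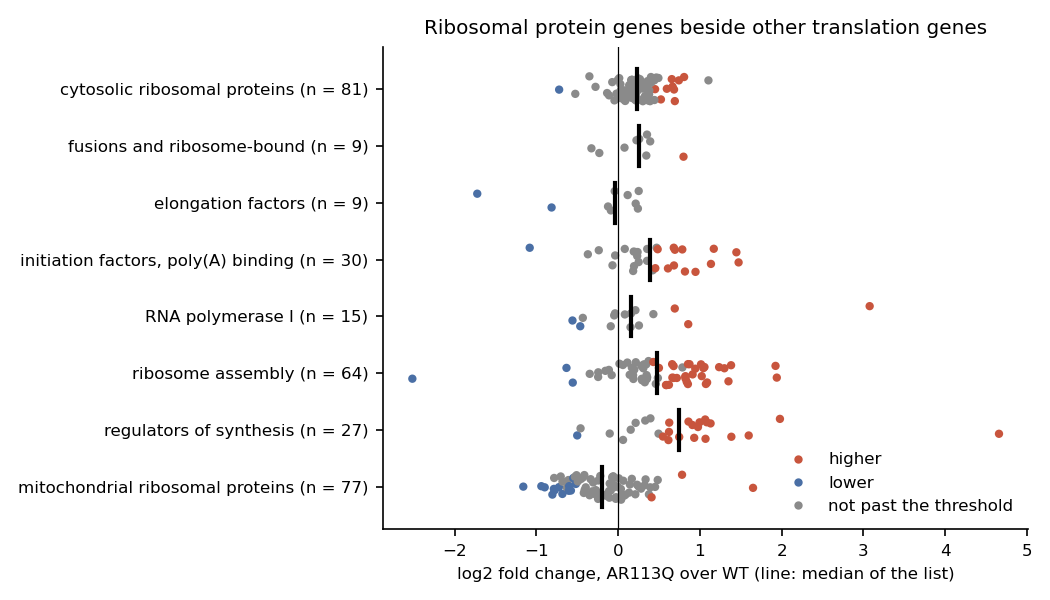
Log2 fold change (horizontal axis) of the ribosomal protein genes and of 7 lists of translation genes, with 1 point per gene, colored by call, and a line at each median. The medians run from -0.20 for mitochondrial ribosomal proteins to 0.75 for regulators, with 0.23 for cytosolic ribosomal proteins.

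Markers of other cells moved in the same comparison, in which 21.0% of all genes were higher and 22.6% lower. Of 8 fibroblast markers 6 were lower, with a median change of -2.03, and their summed log2 level was 16.65 to 16.96 in WT and 16.22 to 16.74 in AR113Q. Of 7 adipocyte markers 5 were lower (71.4%), with a median change of -1.39 and a summed level of 15.90 to 16.66 in WT and 15.24 to 15.51 in AR113Q. Of 8 macrophage markers 3 were lower and 1 higher, with a median of -0.70 and summed levels of 13.01 to 13.78 in WT and 12.54 to 13.00 in AR113Q. Muscle fiber markers were also affected, 4 of 10 lower, with a median of -0.60 and summed levels of 19.87 to 20.10 in WT and 19.56 to 19.84 in AR113Q. Endothelial markers had 2 higher and 1 lower of 8, Schwann markers 1 higher and 2 lower of 6, satellite cell markers 1 and 1 of 4, and erythrocyte markers 0 of 4. The satellite cell marker Myf5 had no kept probe. Their part in the values of the ribosomal protein genes was not tested.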

How the data were processed

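RNA from the quadriceps of 4 WT and 3 AR113Q mice was hybridized to Agilent mouse arrays with a single dye. The authors deposited an intensity per spot from Feature Extraction 10.7.3.1, background-subtracted and not normalized between arrays. They also deposited log2 values of the authors' own quantile normalization.

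Here log2 intensities were quantile normalized after control and outlier spots (94 to 151 per array) were left out, and spots of a probe were averaged. A probe was kept if 3 or more of 7 arrays had it well above background, and the brightest kept probe represented a gene. Names followed the files or RefSeq (28330 of 39429 probes matched, 169 of the 185 of ribosomal protein genes). The test was lmFit and eBayes of limma 3.58.1 (R 4.3.3), with Benjamini-Hochberg adjustment over 16577 genes. Marker levels were summed as intensities. Within-array differences were tested with SciPy by exact permutation of 35 splits. The procedure was tested on simulated data, in which 200 of 16577 genes were given a change. It recovered 0% of changes of 0.5 on the log2 scale, 6.5% of changes of 1 and 93.5% of changes of 2. In the measured data 43.6% of all genes passed, and recovery with so large a share of changed genes was not tested.

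The members and lists were chosen with earlier results of these data known. Genes were named by a rule: the 8 largest increases and decreases that passed, the paralogues with their partners, the stalk proteins, Rpsa, Rps6, Rpl5, Rpl11, Rps27a, the 6 with the widest gap between probes that differ in direction or call, and the extremes of each list. The windows, the run of pyrimidines and the letters searched were chosen after the sequences had been seen. Alternatives were other scalings, background corrections, filters, probe rules, models, blocks and arrays left out.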

Additional observations from a re-analysis of the deposited data

Results flagged for a closer look

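In Rps27, WT replicate 1 stood apart at a log2 signal of 15.79, with the other WT arrays at 15.60 to 15.62 and the lowest AR113Q array at 16.13. This was found among the 25 named ribosomal protein genes, and chance alone picks out about 1 group in 20.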

How the results depend on the processing

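The number of ribosomal protein genes past the threshold depended on the setting, while the median change stayed above 0 in all of them. Against 9 higher and 1 lower, 75th percentile scaling gave 2 and 2, normexp background correction 18 and 1, the authors' values 24 and 1, the mean spot intensity 16 and 1, an intensity trend in eBayes 16 and 1, the mean over probes 8 and 2, and each probe as a feature 13 and 2. Of all genes, or of all probes in the last setting, 39.5% to 45.0% passed in these settings. With arrays left out in turn, 3 to 22 were higher while 34.4% to 44.9% of all genes passed, and the medians lay between 0.19 and 0.33. Adding a change of at least 1 left 0 higher and 0 lower. The only gene of that size was Rps21 (unadjusted p = 0.0970 by limma). A fixed term for slide, in which the genotypes are compared only on the shared slide, gave 0 higher and 0 lower by limma (12 and 0 at an unadjusted p of at most 0.05) and 0 calls in the lists, with 0 of all 16577 genes called. With the replicate number as a replicate block 1 was higher and 0 were lower (9 and 1 unadjusted) while 33.4% of all genes passed, and 56 genes of the lists passed in place of 91. The numbers do not pair the arrays, since arrays of the same number had correlations of 0.04, -0.02 and 0.16 in their deviations. Leaving out an array gave 59 to 96 calls in the lists. The causes were not tested. None of the 9 named genes that passed changed direction in any setting with 1 value per gene. The precision is limited by 7 arrays, by copies in the genome and by low signals such as that of Rps21, well above background on 6 of the 7 arrays.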
